A study of Mus musculus and blank sample with 91 samples.

Results

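Fecal bacteria of 6 mice immunized for experimental autoimmune encephalomyelitis (EAE) were compared with those of 6 naïve mice at 8 days post-immunization (dpi), when the clinical score of all 12 mice was still 0. In EAE, used to study multiple sclerosis, an immune response against myelin leads to ascending paralysis. The 12 samples were all those that the labels gave as EAE or naïve at 8 dpi, out of 88 fecal samples with counts in the series. The EAE mice were female C57BL/6 animals aged 8 weeks, given 50 µg of residues 35 to 55 of myelin oligodendrocyte glycoprotein (MOG) in Complete Freund's Adjuvant (CFA) under the skin and 250 ng of pertussis toxin into the peritoneum on days 0 and 2. The naïve mice were of the same sex, strain and age and were left untreated. Peptide, adjuvant, toxin and handling came together, so their parts in a difference between EAE and naïve mice cannot be told apart. Mice were caged in groups of 2 to 3 and treatment was assigned by cage. The labels do not name the cage. Mice of a cage are not independent, so the p-values may be too small. The same 12 mice at -2 dpi, and 6 mice at 8 dpi that received CFA without the peptide, are given beside the results where they bear on them. The sources used here do not settle whether the CFA mice also received pertussis toxin, so EAE and CFA mice may differ by more than the peptide.

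Bacteria were identified from part of their 16S rRNA gene (V3-V4), amplified from fecal DNA and sequenced. Values are percents of the counts of a sample, so a lower percent of a family cannot be told apart from a higher amount of all the others. In the mouse gut, lactobacilli ferment sugars to lactic acid, while many families of the class Clostridia are strict anaerobes that ferment fibre to short-chain fatty acids, among them butyrate, which acts on regulatory T cells. Akkermansia feeds on the mucus that lines the gut. Immune cells that later enter the central nervous system are primed in the periphery during the preclinical days, before the first symptoms.

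A pair of EAE samples stood apart in depth. Total counts were 48685, 17439, 46272, 9202, 54765 and 56057 in EAE mice 550, 551, 553, 555, 556 and 557, and ranged from 33356 to 75148 in the 6 naïve mice. ASVs (amplicon sequence variants) that differed only in their primer ends were merged to sequence variants, and mouse 555 had counts in 3 of these, mouse 551 in 12, the other EAE mice in 34 to 51 and the naïve mice in 16 to 61. The 3 variants of mouse 555 were Lactobacillus johnsonii with 3636 counts, a variant of Ruminococcaceae_UCG-014 with 4419 counts and Eubacterium coprostanoligenes with 1147 counts. Its lowest variant above 0 thus held 1147 counts, against 2 to 60 counts in the other 11 mice, so rarer bacteria were not recovered from this sample, and whether they were absent from the mouse or lost in its library cannot be told apart. The same mouse had 37156 counts in 29 variants at -2 dpi. A floor of 3 counts equalled 0.0326% of the counts in mouse 555 and 0.00399% to 0.0172% in the others, and the widest 95% Wilson interval of a named family or genus reached 1.02 percentage points to either side in mouse 555 and 0.740 in the others. Intervals and floors cover counting error only. Results are given with and without mouse 555, whose total is the only one of the 88 under 10000, and without both mice where that changes a call.

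**Figure D1:**
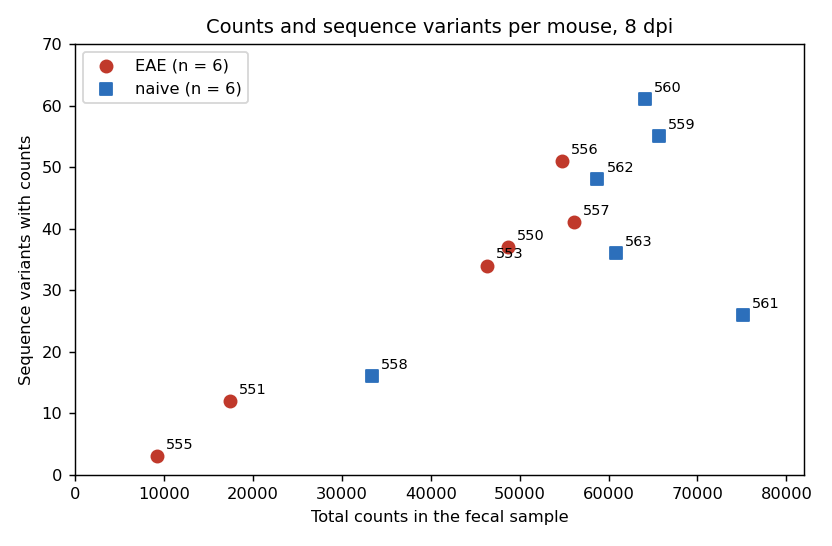
Total counts of a fecal sample (horizontal axis) against the number of sequence variants with counts (vertical axis) at 8 dpi, for 6 EAE mice (circles) and 6 naïve mice (squares), each with its mouse number. EAE mice 555 and 551 lie at the lower left with 9202 and 17439 counts and 3 and 12 variants, while the other 4 EAE mice lie within the range of the naïve mice in variants.

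Clostridia families together held more of the counts in EAE mice than in naïve mice at 8 dpi in the group means, and Lactobacillaceae held less. The 8 Clostridia families of the list used here summed to 44.6% to 64.5% in EAE mice, with a median of 55.5%, and to 7.12% to 54.5% in naïve mice, with a median of 36.4%. At -2 dpi their mean sums had been 28.2% and 25.8%. The median difference between the group means was 2.72 percentage points over the 7 Clostridia families with counts and -0.151 over all 19 families with counts, and 3 of the 7 had a lower mean in EAE mice. By edgeR 1 of the 8 was called higher and 0 lower. The list leaves out 3 further Clostridia lineages, of which Clostridiales_vadinBB60 was called lower, and with these the median difference over 10 families with counts was 0.0280 percentage points. In the quasi-likelihood test of edgeR, 4 of 23 families tested (17.4%) passed an adjusted p of 0.05, 1 higher (4.35%) and 3 lower (13.0%) in EAE mice. Without mouse 555 only the higher one, Peptostreptococcaceae, was still called, which is 4.35% of families. A two-sided exact permutation test of the percents, whose smallest possible p is 0.00216, called 0 of 19 families after adjustment (0.0%), and 3 (15.8%) had an unadjusted p under 0.05, or 5 (26.3%) without mouse 555 and 4 (21.1%) without mice 551 and 555. The groups overlapped in all 19 families (0.0% without overlap). The level of these contrasts changed with the scaling: the median log2 difference over the 23 families was -0.61 with TMMwsp factors and -0.06 when scaled by total counts only. Single families moved by other amounts, so each log2 difference of a family holds for its scaling only.

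**Figure D2:**
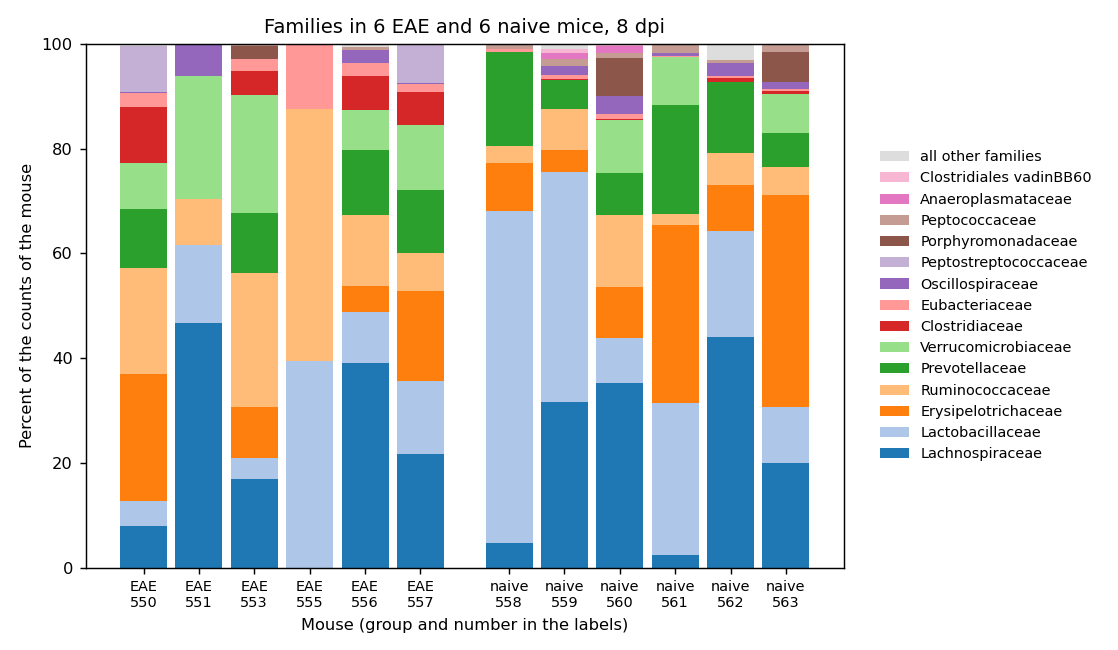
Stacked bars of the 14 named families as percents of the counts of each mouse at 8 dpi, with all other families in light grey, for EAE mice (left) and naïve mice (right). Lactobacillaceae take 3.97% to 39.5% of the EAE bars and 8.59% to 63.4% of the naïve bars, Peptostreptococcaceae appear in EAE mice 550 and 557 alone, and the bar of mouse 555 holds 3 families.

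Lactobacillaceae, the family of the lactic acid bacteria, ranged from 3.97% to 39.5% in EAE mice with a median of 11.7%, and from 8.59% to 63.4% in naïve mice with a median of 24.6%. The highest EAE value was that of mouse 555, and without it the EAE mice lay between 3.97% and 14.9%, below 4 of the 6 naïve mice. Group means were 14.5% ± 13.1 (SD, n = 6) and 29.3% ± 21.2 (SD, n = 6), or 9.44% ± 4.98 (SD, n = 5) in EAE mice without mouse 555. The exact permutation test gave p = 0.169 with all mice and p = 0.0606 without mouse 555. In edgeR the family was lower in EAE mice by a log2 difference of -2.54 (SE 0.86, adjusted p = 0.0301), which did not pass without mouse 555 (-2.53, edgeR adjusted p = 0.0555) or with total counts as the only scaling (-1.02, edgeR adjusted p = 0.434). The TMMwsp factor was 6.08 in mouse 555, 2.62 in mouse 551, 0.918 to 1.44 in the other EAE mice and 0.419 to 1.42 in naïve mice, and its part in the call was not tested beyond that scaling. Practically all Lactobacillus counts were those of 1 variant, L. johnsonii, which was also the 1 variant of 162 with counts in all 12 mice.

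Ruminococcaceae, anaerobes that include many degraders of plant fibre, ranged from 7.30% to 48.0% in EAE mice with a median of 16.9%, and from 2.23% to 13.8% in naïve mice with a median of 5.72%. Mouse 555 was again the highest. The other 5 EAE mice lay between 7.30% and 25.5%, and 4 naïve mice lay below all of them. Means were 20.6% ± 15.1 (SD, n = 6) and 6.43% ± 4.12 (SD, n = 6), a difference of 14.2 percentage points. The exact permutation test gave an unadjusted p = 0.0216 (adjusted p = 0.137), and p = 0.0390 without mouse 555. The edgeR log2 difference of 0.68 did not pass (edgeR adjusted p = 0.337), whereas with total counts as the only scaling it was 1.68 and passed (edgeR adjusted p = 0.0166).

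Other Clostridia families with more counts in EAE mice were Clostridiaceae and Eubacteriaceae. Clostridiaceae, which ferment sugars and amino acids, ranged from 0% to 10.7% in EAE mice (median 5.36%) and from 0% to 0.761% in naïve mice (median 0.291%). The EAE mice formed a high set of 4 mice, at 4.47% to 10.7%, and a pair at 0%, which were mice 551 and 555. The exact permutation p was 0.0606 with all mice, 0.0152 without mouse 555 and 0.0048 without both, where it passed adjustment (adjusted p = 0.0452). Eubacteriaceae, represented here by Eubacterium coprostanoligenes, a species known for converting cholesterol to coprostanol, ranged from 0% to 12.5% in EAE mice (median 2.49%) and from 0.208% to 0.862% in naïve mice (median 0.410%). All EAE mice but mouse 551, at 0%, lay above all naïve mice. The exact permutation test gave p = 0.0173 (adjusted p = 0.137), p = 0.0281 without mouse 555 and p = 0.0048 without both (adjusted p = 0.0452). With both mice left out, these 2 of 19 families (10.5%) had no overlap between the groups, all EAE mice being higher. That choice was made after the data were seen and removes every EAE mouse at 0% in these families, so the lack of overlap follows from it. An exact permutation p of 0.0048 is also the smallest that can be reached with both left out.

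Peptostreptococcaceae, here the single genus Romboutsia, were called higher in EAE mice on the basis of a pair of mice. They made up 8.84% of the counts of mouse 550 and 7.46% of those of mouse 557, and 0 counts were found in the other 4 EAE mice and all 6 naïve mice. Against the floor of 3 counts in each naïve library, the EAE mean was at least 505-fold higher (edgeR adjusted p = 0.0076, and 0.0055 without mouse 555). The exact permutation test, which weighs mice equally, gave p = 0.455. Both mice carried the genus before immunization, at 1.90% and 1.27%, as did naïve mouse 558 at 0.666%.

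Peptococcaceae, a minor family of anaerobes, went the other way. They had counts in 6 of 6 naïve mice, at 0.511% to 1.68% with a median of 1.12%, and in 2 of 6 EAE mice, at 0.357% and 0.581%. The second of these exceeded the lowest naïve mouse, which was the only overlap. Means were 0.156% ± 0.252 (SD, n = 6) in EAE mice and 1.13% ± 0.406 (SD, n = 6) in naïve mice, and the exact permutation p of 0.00433, which was 0.00649 without mouse 555, was the lowest of all families but did not pass adjustment (adjusted p = 0.0823). The edgeR test did not call the family either (edgeR adjusted p = 0.304). In the CFA mice at 8 dpi Peptococcaceae had counts in 0 of 6, so low values were not particular to EAE mice. The family was called lower in CFA mice than in naïve mice (edgeR adjusted p = 0.0021). It was called higher in EAE mice than in CFA mice (edgeR adjusted p = 0.0121).

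A further pair of families was called lower in EAE mice with all of those mice at 0 counts. Anaeroplasmataceae, bacteria without a cell wall, had counts in 2 of 6 naïve mice, at 1.17% and 1.46%. Their naïve mean was at least 35.8-fold higher than the EAE floor (edgeR adjusted p = 0.0301, and 0.0555 without mouse 555). Clostridiales_vadinBB60, a Clostridia lineage known mainly from sequences, had counts in 3 of 6 naïve mice, at 0.207% to 0.608%, a mean at least 15.2-fold over the EAE floor (edgeR adjusted p = 0.0316, and 0.0603 without mouse 555). In either family 3 or more naïve mice were at 0 as well, and the exact permutation p was 0.455 and 0.182.

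Akkermansia muciniphila, the mucin degrader that stands for the family Verrucomicrobiaceae, had counts in 5 of 6 EAE mice and 3 of 6 naïve mice. It ranged from 0% to 23.7% in EAE mice (median 10.5%) and from 0% to 10.0% in naïve mice (median 3.66%). Mouse 555 was the only EAE mouse at 0, and the others lay between 7.81% and 23.7%, of which mice 551, 553 and 557 were above all naïve mice. The difference between the means was 8.09 percentage points (exact permutation p = 0.0931, and 0.0260 without mouse 555, where the adjusted p was 0.134). The edgeR log2 difference was 0.50 (edgeR adjusted p = 1).

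The other large families overlapped widely. Lachnospiraceae, fermenters of fibre that include many butyrate producers, had a median of 19.4% in EAE mice (0% to 46.7%) and 25.9% in naïve mice (2.40% to 44.1%). Erysipelotrichaceae, almost all of them Turicibacter, had medians of 7.40% (0% to 24.2%) and 9.46% (4.14% to 40.4%). Prevotellaceae, degraders of plant polysaccharides, had medians of 11.4% (0% to 12.3%) and 10.9% (5.46% to 20.8%). Among these families the 0% was that of mouse 555, and of mouse 551 as well in Erysipelotrichaceae and Prevotellaceae. Oscillospiraceae reached 6.04% in EAE mice and 3.46% in naïve mice, and Porphyromonadaceae 2.48% and 7.23%. None of these 5 families passed edgeR or the exact permutation test, with or without mouse 555.

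At the genus rank, edgeR called 8 of 65 genera tested (12.3%), 3 higher (4.62%) and 5 lower (7.69%) in EAE mice, and in each of them all mice of a group were at 0 counts. Without mouse 555 the 3 higher ones, Romboutsia, Anaerostipes and Ruminiclostridium, were still called, which is 4.62% of genera, and the 5 lower ones were not. Permutation tests of the percents called 0 of 55 genera after adjustment (0.0%, lowest adjusted p = 0.238), with 3 (5.45%) at an unadjusted p under 0.05, 5 (9.09%) without mouse 555 and 6 (10.9%) without mice 551 and 555.

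Anaerostipes, which forms butyrate from lactate, was the genus found most widely in EAE mice and in none of the naïve mice. It ranged from 0% to 1.98% in EAE mice with a median of 1.02%, and had 0 counts in 6 of 6 naïve mice. Mouse 555 was the only EAE mouse at 0, and without it the groups did not overlap, as in 1.82% of the 55 genera. The EAE mean of 0.986% ± 0.709 (SD, n = 6) was at least 183-fold over the naïve floor (edgeR adjusted p = 0.0120, and 0.0098 without mouse 555). The exact permutation p was 0.0152, and 0.00216 without mouse 555, which is the smallest that test can give and gives an adjusted p of 0.119. One EAE mouse, 550, already carried the genus at -2 dpi, at 3.92%, where it was the only genus of 65 that edgeR called between the groups (edgeR adjusted p = 0.0225). From -2 to 8 dpi Anaerostipes went up in 4 EAE mice and down in 1, by a mean of 0.333 percentage points ± 1.23 (SD, n = 6). Naïve mice stayed at 0, and the difference in change did not pass (exact permutation p = 0.591, and 0.513 without mouse 555). In CFA mice Anaerostipes was at 3.70% to 9.84% at 8 dpi, with a median of 6.28%, and had already been at 1.97% to 5.71% in 6 of 6 of them at -2 dpi.

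Ruminiclostridium, a genus of cellulose degraders, had counts in EAE mice 550, 553 and 556, at 3.17%, 3.16% and 1.28%, and 0 counts in the other 3 EAE mice and in all naïve and CFA mice. The EAE mean was at least 236-fold over the naïve floor (edgeR adjusted p = 0.0233, and 0.0197 without mouse 555). The exact permutation p was 0.182. The counts of mouse 556 came from another variant than those of mice 550 and 553, differing at 50 of 402 bases (87.6% identity).

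Clostridium_sensu_stricto_1, which held all Clostridiaceae counts of EAE mice but only part of those of naïve mice, showed a wide separation that edgeR did not call. It had counts in 4 of 6 EAE mice, at 4.47% to 10.7%, and in 2 of 6 naïve mice, at 0.122% and 0.164%. The 4 EAE mice lay far above all naïve mice, and EAE mice 551 and 555 were at 0. The mean of 4.64% ± 4.14 (SD, n = 6) was 97.2-fold that of naïve mice, or 117-fold without mouse 555, and edgeR gave an adjusted p of 0.0777 with all mice and 0.0750 without it. DESeq2 called the genus higher (log2 difference 6.36, DESeq2 adjusted p = 0.0044).

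The 5 genera called lower had 0 counts in all EAE mice and few in naïve mice. Anaeroplasma and Clostridiales_vadinBB60_NA were the single genera of the families above. Tyzzerella-Clostridium XlVb, a genus counted here within Clostridiaceae, had counts in 4 of 6 naïve mice, at 0.218% to 0.761%, and its naïve mean was at least 24.1-fold over the EAE floor. It held the Clostridiaceae counts of naïve mice that were not Clostridium_sensu_stricto_1, and so went against the family as a whole. Intestinimonas/Ruminiclostridium_9, butyrate formers, had counts in 3 of 6 naïve mice (at least 13.0-fold), and Muribaculum, a genus of Bacteroidales, in 1 of 6, at 2.86%. For these last 3 genera and Clostridiales_vadinBB60_NA the edgeR adjusted p was 0.0438 with all mice and 0.0750 without mouse 555, and for Anaeroplasma 0.0320 and 0.0714.

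The remaining named genera did not pass. Lactobacillus had an edgeR adjusted p of 0.0680, or 0.0883 without mouse 555. Ruminococcaceae_UCG-014, an uncultured genus, ranged from 0% to 48.0% in EAE mice (median 5.91%) and from 1.01% to 4.37% in naïve mice (median 2.18%), with mice 550, 553 and 555 above all naïve mice and mouse 551 below them. Ruminococcus, fibre degraders, had medians of 2.93% in EAE mice and 0.620% in naïve mice, and Coprococcus, butyrate formers, of 1.32% and 0.110%. For Lachnospiraceae_NK4A136-Clostridium XlVa the sign of the edgeR log2 difference, -0.07, turned with total counts as the only scaling, to 0.62. Akkermansia, Eubacterium, Turicibacter, Prevotella and Barnesiella had the values of their families or nearly so, and Roseburia, Dorea, Lachnospiraceae_NA and Candidatus_Soleaferrea/Massilioclostridium overlapped between the groups with edgeR adjusted p = 1.

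**Figure D3:**
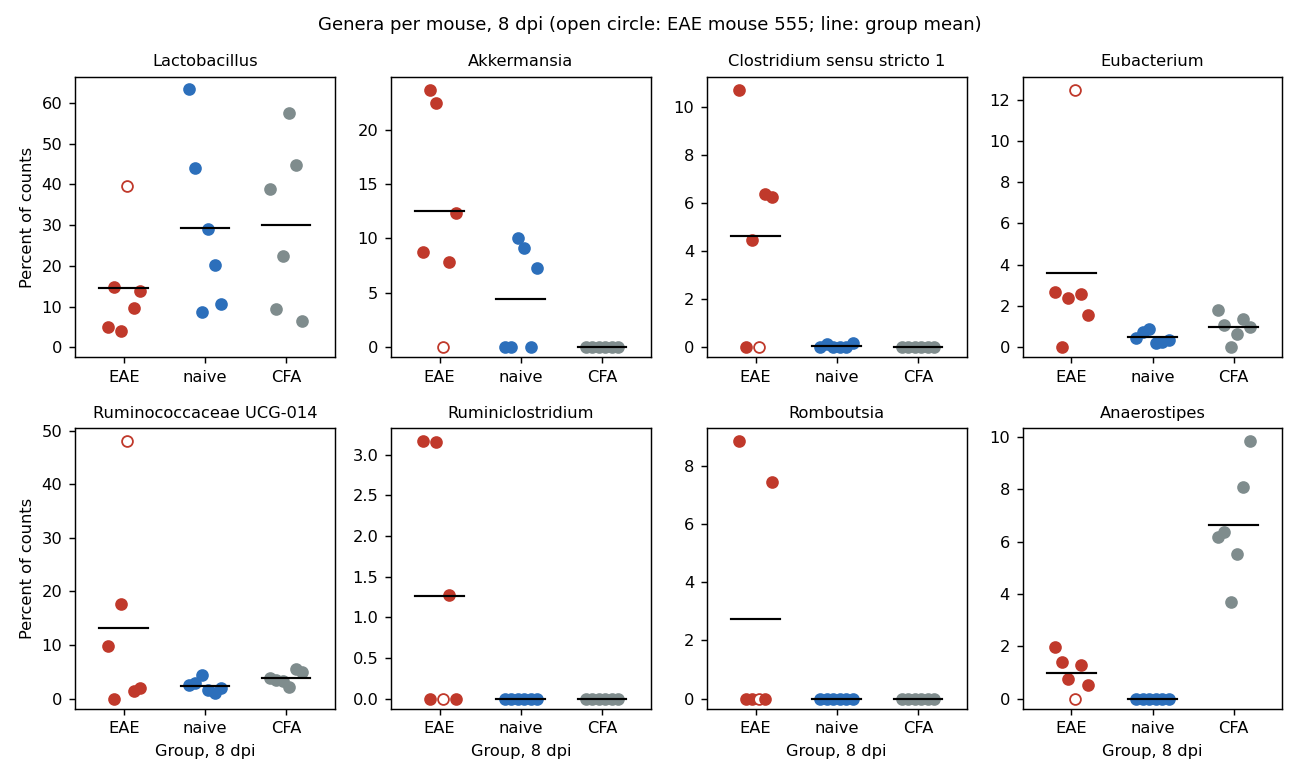
Percent of counts of 8 genera per mouse at 8 dpi in EAE (red), naïve (blue) and CFA (grey) mice, 6 points a group, with a line at the group mean and EAE mouse 555 as an open circle. Each panel has its own linear axis. Clostridium_sensu_stricto_1 and Anaerostipes are at or near 0 in all naïve mice, and mouse 555 is the highest EAE point in Lactobacillus, Eubacterium and Ruminococcaceae_UCG-014 and at 0 in the other 5 panels.

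The genera were also counted by their known roles. Of 11 butyrate-forming genera tested, 1 was called higher (Anaerostipes) and 1 lower (Intestinimonas/Ruminiclostridium_9), with a median difference of -0.0303 percentage points over the 10 with counts, against -0.00806 over all 55 genera, and their sum was 10.7% ± 4.30 in EAE mice and 8.84% ± 7.41 in naïve mice (SD, n = 6 each). Of 5 fibre-degrading genera 1 was called higher (Ruminiclostridium), with a median difference of -0.00278 percentage points. The 1 mucin user, Akkermansia, and 2 lactic acid genera, of which only Lactobacillus had counts, were not called, at differences of 8.09 and -14.9 percentage points. Of 2 wall-less genera, Anaeroplasma was called lower and Mycoplasma had no counts in these mice, as had Anaerotignum and Marvinbryantia among the other genera named in the study. Sequences of Eukaryota, a sign of food or host DNA, had 0 counts in all 12 samples.

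At the rank of sequence variants, the main Eubacterium variant of EAE mice was found in no naïve mouse, while the leading variants of Lactobacillus and Akkermansia were shared. Of 162 variants with counts, 98 occurred in EAE mice and 122 in naïve mice, 58 occurred in both, and 81 occurred in a single mouse. In edgeR 6 of 203 variants tested passed (2.96%), all higher in EAE mice and all with 0 counts in naïve mice, and 5 passed without mouse 555 (2.46%). Permutation tests called 0 of 162 after adjustment (0.0%), with 3 at an unadjusted p under 0.05. Variants of genera outside the called families are described here by a choice made after their values were seen.

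Eubacterium had 2 variants, which differed at 7 of 403 bases (98.3% identity). The first variant was present in 6 of 6 naïve mice, at 0.208% to 0.862%, and in EAE mouse 557 at 0.774%. The second variant was present in 5 of 6 EAE mice, at 0.783% to 12.5%, and in 0 of 6 naïve mice. This one made up 92.6% of the Eubacterium counts of EAE mice (edgeR adjusted p = 0.0490, and 0.0551 without mouse 555, with an exact permutation p of 0.0152 and 0.818 after adjustment). Before immunization the first variant was found in 5 of 6 mice of each group and the second in 1 of 6 of each. In the CFA mice at 8 dpi the first variant was found in 5 of 6 and the second in none.

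Ruminococcaceae_UCG-014 was spread over 18 variants at 8 dpi, of which EAE mice carried 14 and naïve mice 9, with 5 shared. Of all 162 variants with counts 58 were shared, so a small shared part is not particular to this genus. One variant held 3.92% of the counts of EAE mouse 550, 15.1% of mouse 553 and 48.0% of mouse 555, and had 0 counts in the other 9 mice, in all 12 mice at -2 dpi and in the CFA mice (edgeR adjusted p = 0.0275, and 0.0392 without mouse 555). Another, which differed from it at 29 of 403 bases (92.8% identity), was found in 5 of 6 naïve mice at 1.01% to 2.10% and in EAE mice 550 and 557 at 0.376% and 0.410% (exact permutation p = 0.0152, adjusted p = 0.818).

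The other 4 called variants carried the names of called genera, 1 of them only in part. They were the single Romboutsia variant, a Ruminiclostridium variant of mice 550 and 553, and 2 variants named Anaerostipes, of which the second was mostly named Coprococcus. The first Anaerostipes variant was found in EAE mice 550 and 551, at 1.98% and 1.39%, and in 6 of 6 CFA mice. It differed from the second at 36 of 402 bases (91.0% identity). The second was found in EAE mice 550, 553, 556 and 557, at 1.29%, 2.65%, 1.70% and 1.86%, and its merged ASVs carried the name Anaerostipes in 3 cases and Coprococcus in 13. Under the name Coprococcus, a genus not called, its EAE mean was 0.824%, and under Anaerostipes 0.424%. It was also found in 1 CFA mouse, 548, at 1.32%, and at -2 dpi in EAE mice 550 and 557 and naïve mouse 563. All Anaerostipes counts of mice 553, 556 and 557 came from this second variant, so the genus call rests in part on which of these names its ASVs were given. Among all 501 variants, 31 carried more than 1 genus name and 8 more than 1 family name. Variants with more than 1 genus name held 0% to 26.6% of the counts of the 12 mice.

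**Figure D4:**
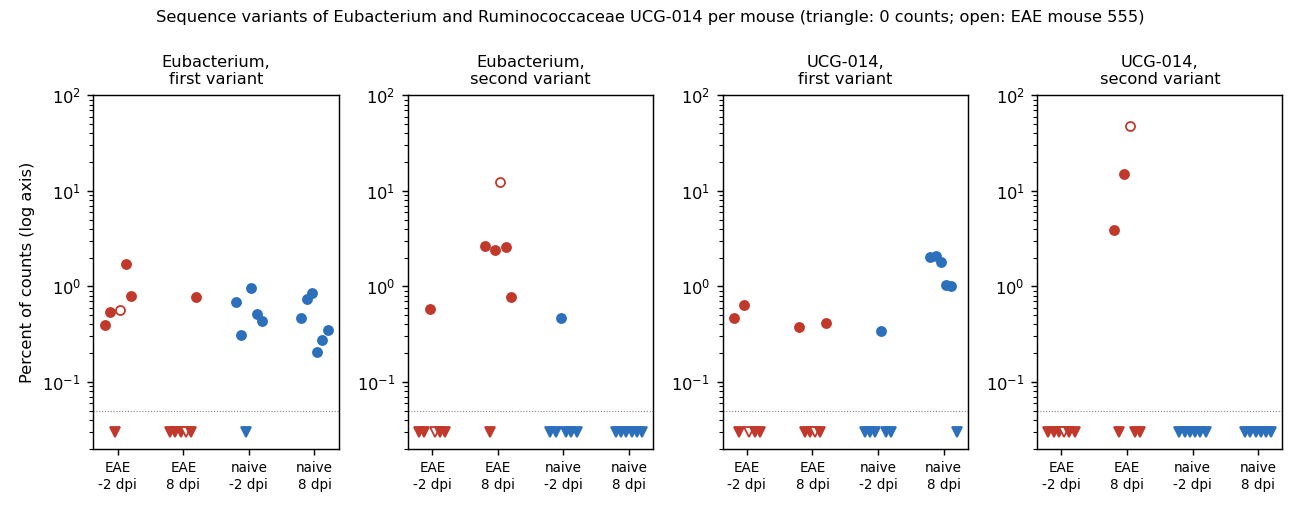
Percent of counts per mouse, on a log axis, of 2 Eubacterium variants and 2 Ruminococcaceae_UCG-014 variants in EAE (red) and naïve (blue) mice at -2 and 8 dpi, with 0 counts drawn as triangles under the dotted line and mouse 555 as open symbols. At 8 dpi the second Eubacterium variant has counts in 5 EAE mice and no naïve mouse, and the first in 6 naïve mice and 1 EAE mouse.

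Before immunization few taxa were called. At -2 dpi edgeR called 0 of 23 families (0.0%) and 1 of 65 genera (1.54%), the Anaerostipes of mouse 550. Change per mouse from -2 to 8 dpi was then compared between the groups. Verrucomicrobiaceae went up in 5 EAE mice and down in none, by a mean of 9.50 percentage points ± 6.49 (SD, n = 6), and went up in 1 naïve mouse and down in 5, with a mean change of -0.98 ± 5.60 (SD, n = 6; exact permutation p = 0.0195, and 0.0108 without mouse 555). Ruminococcaceae went up in 6 of 6 EAE mice, by a mean of 14.3 ± 15.3 percentage points, against 1.57 ± 4.04 in naïve mice (SD, n = 6 each; exact permutation p = 0.0238, and 0.0433 without mouse 555). Clostridiaceae went up in 4 EAE mice and 1 naïve mouse (exact permutation p = 0.0346, and 0.0087 without mouse 555). Lactobacillaceae went down in 5 of 6 EAE mice, by a mean of -17.0 ± 16.4 percentage points, with mouse 555 the exception, and in 4 of 6 naïve mice, by -4.76 ± 30.9 (SD, n = 6 each; exact permutation p = 0.405). Eubacteriaceae and Peptococcaceae also had an unadjusted p under 0.05, but 0 of 20 families passed adjustment (lowest adjusted p = 0.147). Without mice 551 and 555, a choice made after the data were seen, Clostridiaceae and Eubacteriaceae passed (exact permutation, adjusted p = 0.0476 each).

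For the same change in counts, edgeR called 3 of 23 families (13.0%) and 5 of 65 genera (7.69%). Peptostreptococcaceae (4.35% of families were called higher) rested on mice 550 and 557, and Anaeroplasmataceae and Clostridiales_vadinBB60 (8.7% were called lower) on naïve mice, with edgeR adjusted p of 0.0198, 0.0198 and 0.0096. With the mouse number as a block, 0 families and 0 genera passed in edgeR, of 17 and 50 that could be fitted, and 1 of each had an unadjusted p under 0.05.

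**Figure D5:**
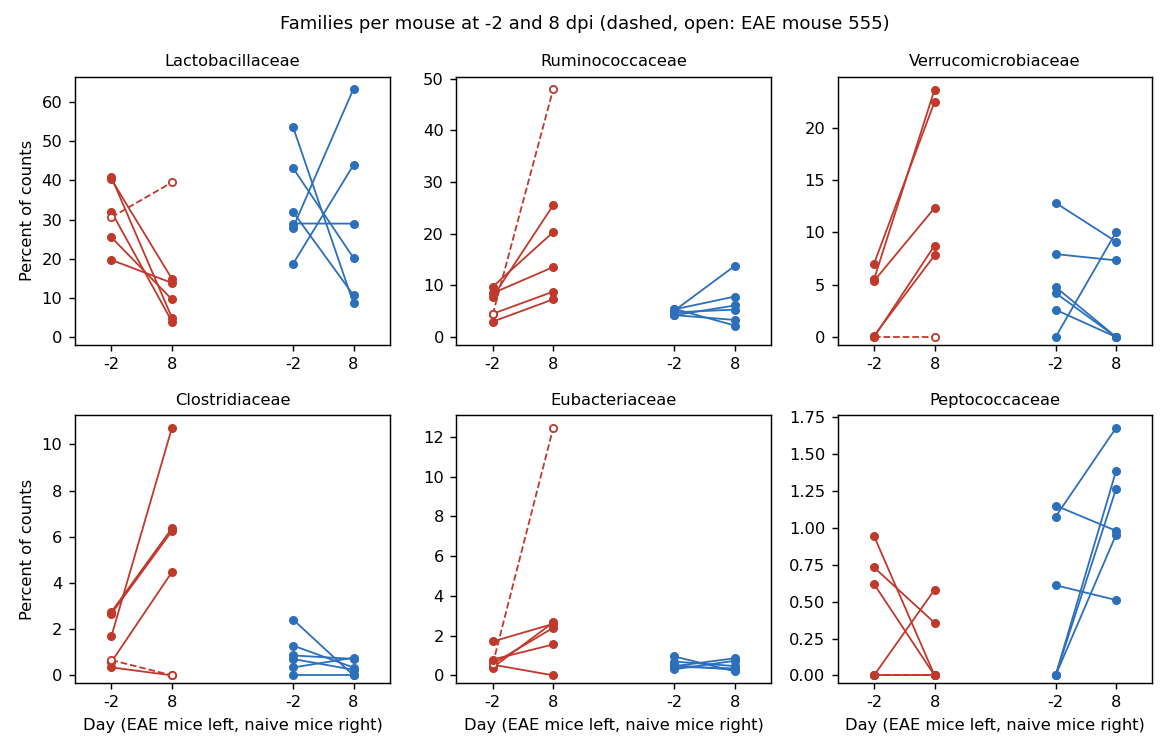
Percent of counts of 6 families in each mouse at -2 and 8 dpi, with EAE mice on the left and naïve mice on the right of each panel and lines joining the samples of a mouse. Mouse 555 is dashed with open circles. Ruminococcaceae lie higher at 8 dpi in 6 of 6 EAE mice and Verrucomicrobiaceae in 5, while the lines of the naïve mice cross.

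The CFA mice at 8 dpi are set beside these values, in comparisons that share the EAE samples. Akkermansia, Turicibacter, Romboutsia, Ruminiclostridium and Clostridium_sensu_stricto_1 had 0 counts in all 6 CFA mice, and each was called higher in EAE mice than in CFA mice (edgeR adjusted p from 1.14e-06 to 0.0101), with and without mouse 555. Before immunization, at -2 dpi, Akkermansia had been at 0 counts in the CFA mice too, whereas Turicibacter, Romboutsia and Clostridium_sensu_stricto_1 had counts in 6 of 6 of them and Ruminiclostridium in 2. Turicibacter at 8 dpi had a median of 7.27% in EAE mice and 9.17% in naïve mice. Lactobacillaceae ranged from 6.42% to 57.7% in CFA mice with a median of 30.6%, and were lower in EAE mice than there (log2 difference -2.42, edgeR adjusted p = 0.0186, and 0.0286 without mouse 555). Without mice 551 and 555 that difference did not pass (-2.35, edgeR adjusted p = 0.0605). In all, 9 of 23 families (39.1%, of which 21.7% higher and 17.4% lower in EAE mice) and 17 of 65 genera (26.2%) were called between EAE and CFA mice, against 17.4% and 12.3% between EAE and naïve mice. Among the named taxa these were 8 of 14 families and 9 of 23 genera.

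Whether composition as a whole separated the groups depended on the taxonomic rank and on mouse 555. Bray-Curtis dissimilarity of genus percents gave a pseudo-F of 1.79, with 15.2% of the variation between the groups (exact permutation p = 0.0952), and families gave 1.92 (exact permutation p = 0.117), whereas sequence variants gave 2.05 and passed (exact permutation p = 0.0455). For genera without mouse 555 the pseudo-F was 2.67 and the share 22.9% (exact permutation p = 0.0130). The mean dissimilarity of genus percents was 0.588 between the groups, 0.605 among EAE mice and 0.484 among naïve mice, and without mouse 555 it was 0.561 between the groups and 0.495 among EAE mice. For sequence variants it was 0.637 between the groups, 0.656 among EAE mice and 0.501 among naïve mice. The pseudo-F also responds to unequal spread, so its test cannot tell that from a shift in composition. At -2 dpi the pseudo-F of genus percents in the same 12 mice was 0.697 (exact permutation p = 0.684).

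No difference in alpha diversity or weight passed a test. EAE mice had 29.7 ± 18.3 observed variants and naïve mice 40.3 ± 17.4 (exact permutation p = 0.331), the Shannon index was 2.44 ± 0.829 and 2.34 ± 0.772 (exact permutation p = 0.844), and the inverse Simpson index was 9.74 ± 5.83 and 7.16 ± 5.22 (SD, n = 6 each; exact permutation p = 0.435). Without mouse 555 these p were 0.597, 0.353 and 0.242 by exact permutation. Body weight at 8 dpi was 17.4 g ± 1.00 in EAE mice against 18.1 g ± 0.767 in naïve ones (SD, n = 6 each), or -0.65 g (exact permutation p = 0.229).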

How the data were processed

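Per the paper's methods, the authors inferred ASVs with DADA2 from V3-V4 reads amplified for 25 cycles and named them by hand from several reference databases. The deposited values are unscaled whole-number counts for each ASV in each sample. Of 2295 ASVs, 2274 carried both primers, and trimming and merging gave 501 sequence variants. Groups are the combinations of treatment and day in the labels, and replicates are separate mice. Of 89 samples in the count table, 1 had a total of 0, and 88 were used. Their totals ran from 9202 to 102437. The 2 water controls in the labels were not analysed here. Of 30 pairs of samples within the groups, 0 agreed within sampling noise (chi-square test).

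Families, genera and variants present in 3 or more samples were tested in edgeR 4.0.16 (R 4.3.3) by quasi-likelihood, in 1 fit of 15 such groups, with TMMwsp factors from genus counts and Benjamini-Hochberg adjustment (threshold 0.05). Percents, changes per mouse, alpha diversity, Bray-Curtis pseudo-F and weight were compared by exact two-sided permutation over 924 splits of 6 against 6 mice, or 462 and 210 with 1 or 2 EAE mice left out, using SciPy 1.17.1, pandas 2.3.3 and numpy 2.4.6 (Python 3.11.15). Scripts were tested on simulated data. Alternatives were DESeq2 1.42.0, total counts only, no filter, the 12 samples alone, centred log ratios, ASVs as deposited, rarefied counts, leaving out mouse 555 and, chosen after seeing the data, leaving out mice 551 and 555.

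The mouse numbers in the labels pair the samples at -2 and 8 dpi, being the same animals. Deviations of same-numbered samples from their group means correlated at -0.207 to 0.141 (median 0.0501), and 0 of 12 mice correlated best with their own number. Named were families with a mean of 1% or more in a group or called, genera with 2% or more or called, genera that the paper's results name, and up to 3 variants of each called family. Taxa and lists (Clostridia families, lactic acid, butyrate-forming, fibre-degrading, mucin-using and wall-less genera, Eukaryota) were chosen with earlier results of these data known.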

Additional observations from a re-analysis of the deposited data

Results flagged for a closer look

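Among values per mouse, a sample lay apart from the others of its group in 8 named taxa by Dixon's test. Its rate of about 1 in 20 groups by chance assumes normal values, and many of these percents are 0, so that rate need not hold. A taxon with counts in only 1 mouse of a group is always flagged, as were Porphyromonadaceae in EAE mice and Muribaculum in naïve mice. In EAE mice these were Lactobacillaceae at 39.5%, Eubacteriaceae at 12.5% and Ruminococcaceae_UCG-014 at 48.0%, all in mouse 555, Lachnospiraceae_NK4A136-Clostridium XlVa at 22.0% in mouse 551, and Porphyromonadaceae at 2.48% in mouse 553. The last of these came from the merged variant that also carried the name Prevotella. In naïve mice they were Roseburia at 12.9% and Muribaculum at 2.86%, both in mouse 562, and Intestinimonas/Ruminiclostridium_9 at 0.706% in mouse 560.

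The difference between EAE and naïve mice at 8 dpi departed from that at -2 dpi in 5 named taxa by the interaction term of edgeR. Its log2 value was 12.10 for Peptostreptococcaceae, 19.67 for Ruminiclostridium, -12.98 for Anaeroplasmataceae, -17.26 for Clostridiales_vadinBB60 and -15.07 for Intestinimonas/Ruminiclostridium_9. In each of them a group was at 0 counts throughout on 1 or both days, so the values depend on the prior count and are no bound on the change. With the mouse number as a block none of them was called.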

How the results depend on the processing

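Across the settings tried, 574 values of single taxa kept their direction and side of the threshold, 42 no longer passed the test, 12 came to pass it and 23 turned in sign, none of which had passed. Families called numbered 4 with all mice and 1 without mouse 555, and genera 8 and 3, and likewise 1 and 3 without mice 551 and 555. The log2 differences of the lost families hardly moved (Lactobacillaceae -2.54 and -2.53), while their adjusted p rose past the threshold with 1 mouse fewer. In the fit of the 12 samples alone, 0 families, 2 genera and 1 variant were called (2, 6 and 9 at an unadjusted p under 0.05). DESeq2 called 15 genera and 58 variants at 8 dpi and 6 families and 13 genera for the change since -2 dpi, where edgeR called 8, 6, 3 and 5. Genera called numbered 4 with total counts only and 5 without the filter, and variants 3 without the filter. With ASVs as deposited, 0 of 648 passed in edgeR (245 at an unadjusted p under 0.05).

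With the mouse number as replicate block, 0 families and 0 genera passed for the change since -2 dpi. For percents of families, 0 were called with all mice, 2 without mice 551 and 555, and 2 with centred log ratios. For change per mouse, 2 families were called without mice 551 and 555. The Bray-Curtis pseudo-F of 1.79 passed at 2.67 without mouse 555, at 3.10 without both and at 2.05 with sequence variant percents. Differences in alpha diversity, none of which passed, turned in sign in 3 cases, to 0.417 observed variants without mice 551 and 555 and to -0.640 for Shannon and -17.4 for inverse Simpson with ASVs as deposited. The causes were not tested.

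The values that turned in sign were these. Without mouse 555 the EAE minus naïve difference became 3.45 percentage points for Lachnospiraceae, 0.139 for Oscillospiraceae, 0.343 for Dorea and 0.480 for Lachnospiraceae_NA, and the log2 difference 0.19 for Lachnospiraceae_NK4A136-Clostridium XlVa (0.0905 for its change since -2 dpi), 0.0575 for the change of Anaerostipes and 0.0238 for Candidatus_Soleaferrea/Massilioclostridium against CFA mice. Without mice 551 and 555 the change was 0.17 for Anaerostipes and 0.10 for Candidatus_Soleaferrea/Massilioclostridium. With total counts only it was 0.59 for Anaerostipes, 0.39 for Dorea and 0.39 for Lachnospiraceae_NK4A136-Clostridium XlVa, whose log2 difference at 8 dpi was 0.62, or 0.41 in DESeq2. In DESeq2 the change was 0.21 for Anaerostipes and -0.11 for Ruminococcus, and with the replicate block 9.23 and -0.36. The difference in medians was 0.577 percentage points for Prevotellaceae and for Prevotella and -1.69 for Lachnospiraceae_NK4A136-Clostridium XlVa, and the centred log ratio of Ruminococcaceae_UCG-014 differed by -0.20.

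Groups of 6 and depths down to 9202 counts limit what can be seen. Floors of 3 counts cover counting alone, and mouse 555 had no variant under 12.5% of its counts, so a taxon listed at 0 there is not shown to be absent.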

Other observations

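The presence of 12 variants, chosen after their values at 8 dpi were seen, was counted in all 88 samples. The Ruminococcaceae_UCG-014 variant of mice 550, 553 and 555 had counts in 12 of 23 EAE samples taken after day 0 and in 0 of the 65 other samples. The Ruminiclostridium variant of mice 550 and 553 had counts in 13 of those 23 EAE samples and in 0 of the 65 others. The second Eubacterium variant was found in 16 of the 23 and in 5 of the 65, and the first, which prevailed in naïve mice, in 9 of the 23 and in 50 of the 65. L. johnsonii was found in 21 of the 23 and in 65 of the 65. Less one-sided were the leading variants of Clostridium_sensu_stricto_1 (21 of 23 and 30 of 65), Ruminococcus (21 and 29), Romboutsia (18 and 9) and Akkermansia (16 and 29), the Ruminococcaceae_UCG-014 variant of naïve mice (12 and 30), and the Anaerostipes variants, of which the first was found in 8 and 30 and the second in 17 and 11. These are counts of samples, among which mice recur from day to day. They include the 8 dpi samples that led to the choice, so part of the one-sidedness follows from it. Of the 12, 13 and 16 EAE samples with the UCG-014, Ruminiclostridium and second Eubacterium variants, 3, 2 and 5 were taken at 8 dpi. The labels give EAE mice other numbers from 14 dpi on, without samples at -2 dpi under those numbers, and no test was made.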
